A study of Bos taurus with 4 samples.

Results

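Insulin-like growth factor 2 (IGF2), the IGF2 mRNA-binding protein IGF2BP3 and the IGF binding protein IGFBP1 were followed in subcutaneous adipose tissue of fetal and adult Qinchuan cattle. The 3 genes were taken from the 36373 UniGene clusters of the study, each cluster being a group of transcript sequences represented by 1 sequence. A gene was matched by its symbol or full name in the description of the representative sequence, and where several clusters matched, the one with the most reads was to be used. Each of the 3 had a single matching cluster, namely Bt.106739 for IGF2, Bt.80827 for IGF2BP3 and Bt.190 for IGFBP1, and all 3 had reads in ATFB. The study sequenced poly(A) RNA from fetal bovines of 200 to 250 days (ATFB) and from cattle of 18 to 24 months that were bulls (ATAB), heifers (ATAH) or steers, males that had been castrated (ATAS). These ages are those of the sample labels, and the study's methods state them differently. Tissue of 5 animals was pooled for each group and made into 1 library, so the 4 libraries have no replicates, and no difference between them has a replicate check. All animals were of 1 breed, and the adult groups differ in sex and castration.

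IGF2 is a secreted growth factor that acts mainly through the receptor IGF1R and is cleared by IGF2R, and it is known as a growth hormone of the fetus that is imprinted, with expression from the paternal copy. IGF2BP3 is an RNA-binding protein of the fetal type that binds IGF2 mRNA among many others and is largely silent in adult tissue. IGFBP1 is a secreted protein that holds IGFs in the extracellular fluid, and in liver it is known to be repressed by insulin and raised by fasting and low oxygen.

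The representative sequences show which stretches the reads could be assigned to. The IGF2 sequence held a coding part of 540 bases, 14.1% of its 3824 bases, and the start of that coding part is shown because 78 bases around the start codon also stood, without a mismatch, in the unnamed cluster Bt.109025. The capitals mark the 70 coding bases of that shared stretch, which covers the start codon and most of the signal peptide. Reads that matched more than 1 place were not counted, and whether shared stretches lost reads was not analysed here.
IGF2 coding start: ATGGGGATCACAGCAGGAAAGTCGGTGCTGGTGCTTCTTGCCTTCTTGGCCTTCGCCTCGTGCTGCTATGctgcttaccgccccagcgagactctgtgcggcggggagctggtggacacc
A longer stretch of 840 bases after the coding part matched the unnamed cluster Bt.30727 at 99.9% identity. These unnamed clusters held few reads, 94, 11, 11 and 16 in Bt.30727 and 36, 2, 2 and 10 in Bt.109025 (ATFB, ATAB, ATAH and ATAS), against 8769 or more on the IGF2 cluster in every library.

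The IGF2BP3 sequence is shown at its 4 KH domains, the RNA-binding modules of this family, because the loop of each is what IGF2BP3 shares with its relatives. A glycine-lysine-any-glycine loop following an isoleucine was found in frame 4 times in IGF2BP3 and also 4 times in IGF2BP1 and in IGF2BP2, and the capitals mark its codons. Bases are counted from 1 at the 5′ end of the cluster sequence, and positions in the genome were not analysed here.
IGF2BP3 from base 958: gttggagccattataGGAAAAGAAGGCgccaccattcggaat
IGF2BP3 from base 1201: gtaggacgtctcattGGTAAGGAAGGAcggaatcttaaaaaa
IGF2BP3 from base 1591: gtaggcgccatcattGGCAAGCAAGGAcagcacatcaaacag
IGF2BP3 from base 1837: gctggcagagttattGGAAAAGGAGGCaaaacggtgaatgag
Translated, IGF2BP3 was identical to IGF2BP1 at 76.0% of 572 aligned residues and to IGF2BP2 at 68.5% of 574. Between nucleotide sequences, 1086 bases aligned with IGF2BP1 at 72.9% identity, and no other named cluster matched IGF2BP3.

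IGFBP1 is shown at the codons for arginine, glycine and aspartate, the integrin-binding motif by which this binding protein can act on cells apart from the IGFs. The capitals mark those codons. IGFBP2 carried the same in-frame motif, while the coding parts of IGFBP3, IGFBP4 and IGFBP5 did not hold it.
IGFBP1: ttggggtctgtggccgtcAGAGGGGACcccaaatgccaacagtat
IGFBP2: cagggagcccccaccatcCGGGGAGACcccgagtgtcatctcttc
No other cluster matched the IGFBP1 sequence by BLAST. Translated, IGFBP1 was identical to IGFBP2 at 39.9% of 258 aligned residues and to IGFBP3 at 38.0% of 250.

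Counted reads per library, in units of 1000000, ranged from 15.3 to 16.1. Levels are given as RPKM, the reads scaled to the length of the sequence and to the library total. The limit that a count of 0 allows, 3 reads, corresponds to 0.0435 to 0.0514 RPKM on the long IGF2 and IGF2BP3 sequences and to 0.127 to 0.134 RPKM on IGFBP1. Intervals and limits given here cover counting error only. Of 12 adipocyte markers 11 had a named cluster, and all 11 had reads in every library, with a summed level of 1447 RPKM in ATFB and 10524 to 15258 in the adult libraries. The red cell markers with a cluster, 3 of 6, summed to 2391 RPKM in ATFB and to at most 1.54 in an adult library, and 4 of 6 keratinocyte markers summed to 17.0 RPKM in ATFB against 2.40 to 3.22. DDX3Y, a Y-linked gene, had 0 reads in ATFB, which held 36.3 RPKM of XIST, the RNA of the inactive X chromosome, near the 28.1 RPKM of ATAH. In these genes the fetal pool was like the heifers, so age and sex cannot be told apart where ATAB or ATAS is compared with ATFB. In bulk tissue, fewer cells of a type and less RNA per cell cannot be told apart.

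IGF2 had by far the highest level of the 3 genes and was highest in the fetal library. It had 178864 reads (ATFB), 8769 (ATAB), 14090 (ATAH) and 18210 (ATAS). Per length these were 3062 RPKM in ATFB (95% counting interval 3048 to 3076), 142 in ATAB (139 to 145), 236 in ATAH (232 to 240.3) and 306 in ATAS (302 to 311). The fetal level thus stood above all adult levels, which among themselves spanned little more than a doubling. IGF2 took 1.17% of all counted reads in ATFB and 0.0543%, 0.0904% and 0.117% in ATAB, ATAH and ATAS. By RPKM it ranked at place 22 of all clusters in ATFB and at places 480, 260 and 202 in the same adult libraries. In the RefSeq annotation of the ARS-UCD2.0 assembly IGF2 lies next to INS, the insulin gene, with no gene listed between them, and strand was not stated in the sources used here, so reads of overlapping transcripts cannot be told apart. The summed level of preadipocyte and fibroblast markers, 8 of 8 with a cluster, was 11464 RPKM in ATFB against 8021, 2580 and 3378 in ATAB, ATAH and ATAS. Against ATFB, 2, 5 and 5 of the 8 were called lower in these libraries and 0, 1 and 1 higher, where 13.1%, 9.83% and 10.5% of all clusters were called lower and 9.51%, 13.9% and 15.5% higher. With the assumed variation between pools described below, 1 of the 8 was called lower in each and 0 higher. The order of these adult sums was not that of IGF2, and their part in its level was not tested.

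Reads of a cluster in a pair of libraries were set against the library totals with the exact binomial test (two-sided), with Benjamini-Hochberg adjustment over every cluster with a read. A difference was called where the FDR was at most 0.001 and the ratio at least 2-fold. Such a test compares those libraries, not the conditions. IGF2 was called lower in ATAB, ATAH and ATAS alike. It was 21.6-fold lower in ATAB (log2 ratio -4.43, 95% interval -4.46 to -4.40), 13.0-fold lower in ATAH (-3.70, -3.72 to -3.67) and 10.004-fold lower in ATAS (-3.32, -3.34 to -3.30). These comparisons share the ATFB library. With a biological coefficient of variation of 0.4 assumed between pools (edgeR exact test), the call in ATAB held at an adjusted p of 0.000734, and those in ATAH and ATAS were lost at 0.00526 and 0.0116.

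Among adult libraries the order of IGF2 was ATAS, ATAH, ATAB. IGF2 was higher in ATAS than in ATAB at a log2 ratio of 1.11 (1.07 to 1.15) and was called, but with edgeR TMM factors the ratio was 0.81, below 2-fold. The neighbours in that order were not called, with a log2 ratio of 0.37 (0.34 to 0.40) for ATAS over ATAH and 0.73 (0.70 to 0.77) for ATAH over ATAB. Both counting intervals lay above 0, but how much pools of like animals vary is not known. The median log2 ratio over all clusters was 0.30 for ATAH over ATAB and 0.34 for ATAS over ATAB, and 0.04 for ATAS over ATAH. With TMM factors all log2 ratios shifted by -0.28 for ATAH over ATAB and -0.29 for ATAS over ATAB, and over ATFB by 0.18 in ATAB, -0.10 in ATAH and -0.12 in ATAS.

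IGF2BP3 was found almost exclusively in the fetal library. It had 302 reads (ATFB), 10 (ATAB), 0 (ATAH) and 4 (ATAS). These were 4.63 RPKM in ATFB (4.13 to 5.19), 0.145 in ATAB (0.0696 to 0.267), 0 in ATAH (up to 0.0451 by the 3-read limit) and 0.0603 in ATAS (0.0164 to 0.154). The fetal level was low in itself, at place 12394 by RPKM, and covered 77.5% of the sequence with reads. In ATAB 18.1% and in ATAS 8.44% of the sequence was covered.

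IGF2BP3 was called lower in each adult library. It was 31.9-fold lower in ATAB (log2 ratio -5.00, -6.07 to -4.10) and 76.9-fold lower in ATAS (-6.26, -8.15 to -4.89). In ATAH it was 102.75-fold lower with 3 reads set in place of the count of 0. All 3 calls held with the assumed coefficient of 0.4, at adjusted p values from 6.7e-07 to 0.000546 by the edgeR exact test. No pair of adult libraries was called, and the neighbours in the order ATAB, ATAS, ATAH did not differ beyond counting error. The adjusted p was 0.371 for ATAS against ATAB and 0.307 for ATAS against ATAH by the exact binomial test, and 0.00948 for ATAH against ATAB. What difference could be detected with so few reads was not tested.

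IGFBP1 followed a different order, with one adult library like the fetal library and another without a read. It had 233 reads (ATFB), 0 (ATAB), 238 (ATAH) and 124 (ATAS). These were 10.4 RPKM in ATFB (9.11 to 11.8), 0 in ATAB (up to 0.127 by the 3-read limit), 10.4 in ATAH (9.13 to 11.8) and 5.43 in ATAS (4.52 to 6.48). Reads lay along the whole sequence, covering 97.8% of it in ATFB, 97.7% in ATAH and 92.8% in ATAS.

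**Figure D1:**
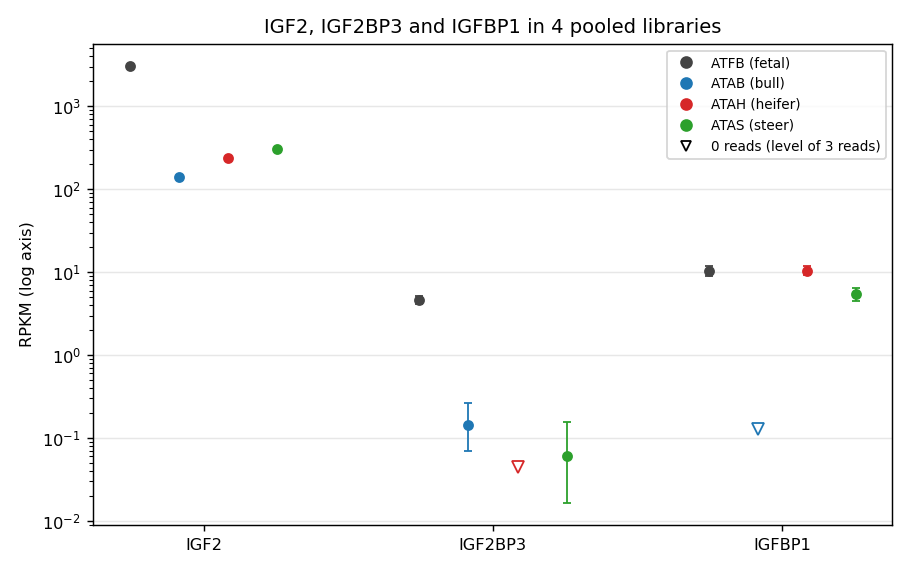
RPKM of IGF2, IGF2BP3 and IGFBP1 (log axis) in the 4 pooled libraries, with 95% counting intervals as bars and open triangles at the level of 3 reads where no read was counted. IGF2 and IGF2BP3 were highest in ATFB, while IGFBP1 was at 10.4 RPKM in ATFB and in ATAH and had no read in ATAB.

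IGFBP1 was called lower in ATAB than in ATFB, by 82.1-fold with 3 reads set in place of the count of 0. It was called higher in ATAH than in ATAB by 82.2-fold and in ATAS than in ATAB by 42.9-fold, computed in the same way. These folds leave out the counting error of the other library. These 3 calls also held with the assumed coefficient of 0.4, at adjusted p values from 3.23e-06 to 0.000487 by the edgeR exact test. For ATAH over ATFB the log2 ratio was 0.00, with a counting interval from -0.27 to 0.27 and an adjusted p of 1 by the exact binomial test. The steer library lay below both, at -0.94 against ATFB (-1.26 to -0.62) and -0.94 against ATAH (-1.26 to -0.62), just under the 2-fold threshold. Against ATFB the ratio passed that threshold with other scalings, at -1.06 with TMM factors and -1.19 with ACTB.

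Counted together, 3 of the 3 genes were called lower in ATAB than in ATFB, where 13.1% of all 34096 clusters tested were called lower. The 3 genes were chosen with earlier results of these data known, so these counts describe them and are no test. The shares take in every cluster with a read in either library, also those with too few reads to be called. In ATAH and in ATAS 2 of the 3, IGF2 and IGF2BP3, were called lower, beside 9.83% and 10.5% of all clusters. Between adult libraries, IGFBP1 was the 1 gene called higher in ATAH than in ATAB (4.14% of all clusters), IGF2 and IGFBP1 were called higher in ATAS than in ATAB (6.86%), and none was called between ATAS and ATAH, where the shares called were 1.52% higher and 1.48% lower. All 3 genes thus had their highest level, or one within counting error of it, in ATFB. Among the adult libraries IGF2 and IGFBP1 were lowest in ATAB, and no adult pair was called for IGF2BP3.

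ATFB was also compared with the 3 adult libraries as a group by the edgeR quasi-likelihood test, which takes the spread among bull, heifer and steer libraries as its error. At an FDR of 0.05, IGF2 and IGF2BP3 were called higher in ATFB, and 8.39% of the 25584 clusters tested were. The log2 fold change was 3.81 for IGF2 (adjusted p = 0.00869) and 6.03 for IGF2BP3 (adjusted p = 0.0112). IGFBP1 was not called, with a log2 fold change of 1.09 that was 2.05 without ATAH and 0.52 without ATAB. The log2 fold change of IGF2BP3 was 7.32 without ATAB and 5.42 without ATAH. IGF2BP3 was not called by the DESeq2 Wald test, at an adjusted p of 0.0737.

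IGF2 and the protease HTRA1 were called lower in every adult library, and no other gene of the IGF axis was, with HTRA1 in ATAB losing its call under TMM factors. With the assumed coefficient of 0.4, HTRA1 was called in none, and the axis had 2, 0 and 0 genes called lower in ATAB, ATAH and ATAS and 0 higher. A list of 21 genes held the ligands, receptors, binding proteins, and the proteases and inhibitors that act on binding proteins. Of these 17 had a named cluster, and INS, INSR, IGFBP6 and PAPPA2 were not analysed here. Against ATFB, 3 of the 17 were called higher and 5 lower in ATAB, 4 higher and 3 lower in ATAH, and 4 higher and 2 lower in ATAS, beside 9.51%, 13.9% and 15.5% of all clusters called higher and 13.1%, 9.83% and 10.5% lower. The median log2 ratio of the 17 was 0.22 (ATAB), 0.00 (ATAH) and 0.29 (ATAS), and that of all clusters was -0.18, 0.11 and 0.13. With TMM factors the 17 split into 4 higher and 4 lower in ATAB, 1 and 3 in ATAH, and 3 and 3 in ATAS. Between adult libraries, 2 were called higher and 1 lower in ATAH than in ATAB, beside 4.14% and 1.23% of all clusters. ATAS over ATAB had 5 called higher and 2 lower, beside 6.86% and 1.87%. ATAS over ATAH had 2 called higher, beside 1.52%. With the assumed coefficient of 0.4, ATAH and ATAS over ATAB each kept 1 higher and 0 lower, and ATAS over ATAH 0. In ATAS over ATAB, 4 of 7 leukocyte markers were called higher, and 1 of 11 adipocyte markers higher and 4 lower. Their part in these counts was not tested.

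IGF1, the other ligand, was lowest where IGF2 was highest. It had 3.88 RPKM (ATFB), 11.3 (ATAB), 8.29 (ATAH) and 7.51 (ATAS). It was called higher in ATAB (log2 ratio 1.54) and in ATAH (1.10), though the call in ATAH ended with TMM factors, and its ratio in ATAS was 0.95. Within a library, where scaling plays no part, IGF2 exceeded IGF1 790.2 times per length in ATFB (631 to 1003), 12.6 times in ATAB (11.1 to 14.4), 28.5 times in ATAH (24.5 to 33.4) and 40.8 times in ATAS (34.7 to 48.2). IGF2 was the more abundant ligand mRNA in all 4 libraries, and the excess was smallest in ATAB.

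The receptors were low beside IGF2. IGF2R, which carries IGF2 to lysosomes, had 22.7 RPKM (ATFB), 16.5 (ATAB), 20.2 (ATAH) and 24.8 (ATAS) and was called in no pair. IGF1R, the signalling receptor, had 3.18, 3.64, 4.93 and 8.98 RPKM in the same order. It was called higher in ATAS than in ATFB (log2 ratio 1.5) and than in ATAB (1.30), the latter not with DESeq2 size factors. INSRR, the insulin receptor-related receptor, had 1, 16, 2 and 0 reads. IGF2 over IGF2R was 135 (ATFB), 8.58 (ATAB), 11.7 (ATAH) and 12.4 (ATAS) as a ratio of RPKM.

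**Figure D2:**
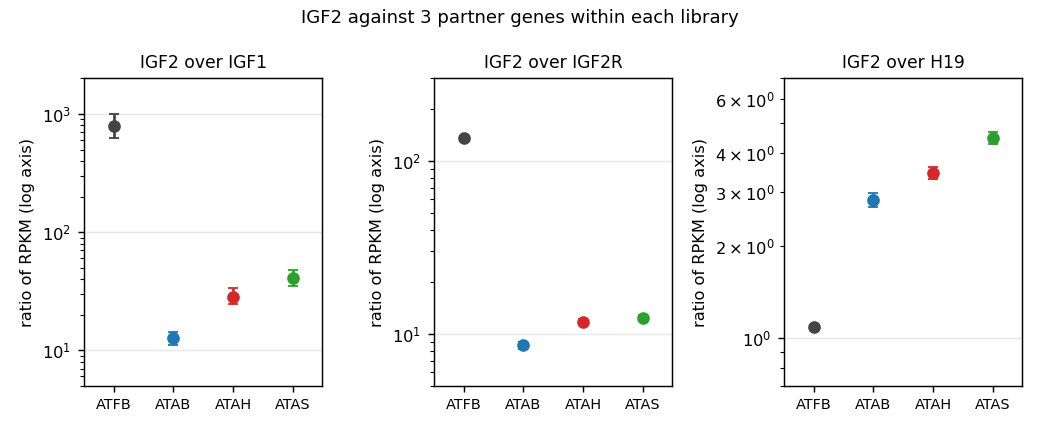
Ratio of the RPKM of IGF2 to that of IGF1, IGF2R and H19 within each library (log axes), with 95% counting intervals as bars. IGF2 exceeded IGF1 and IGF2R most in ATFB, at 790.2 and 135, while its ratio to H19 was lowest there, at 1.09.

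IGFBP1 was a minor part of the binding proteins at the mRNA level. Of the summed RPKM of IGFBP1 to IGFBP5 it made up 2.09% (ATFB), 0% (ATAB), 1.39% (ATAH) and 0.717% (ATAS). IGFBP3 and IGFBP4, the main carriers in serum and in connective tissue, held most of the sum. IGFBP4 had 235, 286, 235 and 196 RPKM in ATFB, ATAB, ATAH and ATAS and was called in no pair.

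IGFBP3, which lies next to IGFBP1 in the RefSeq annotation of the ARS-UCD2.0 assembly with no gene listed between them, was also lowest in ATAB. It had 179 RPKM (ATFB), 75.7 (ATAB), 363 (ATAH) and 387 (ATAS). The log2 ratio was -1.24 for ATAB over ATFB, 2.26 for ATAH over ATAB and 2.36 for ATAS over ATAB, and all 3 were called, though none with the assumed coefficient of 0.4. Its ratios of 1.02 in ATAH and 1.11 in ATAS over ATFB were called with library totals but not with TMM factors, at 0.92 and 0.99. IGFBP1 over IGFBP3 was 0.0580 in ATFB, 0.0287 in ATAH and 0.0140 in ATAS as a ratio of RPKM, and 0 in ATAB.

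IGFBP2 and IGFBP5 did not follow IGFBP1. IGFBP2, the binding protein that shares the integrin motif shown above, had 7.69, 10.8, 5.58 and 6.40 RPKM in ATFB, ATAB, ATAH and ATAS, was highest in ATAB and was called in no pair. With TMM factors it was called lower in ATAH (-1.23) and ATAS (-1.05) than in ATAB. IGFBP5, a binding protein of connective tissue and muscle, had 65.8 RPKM in ATFB and 159, 133 and 163 in ATAB, ATAH and ATAS. It was called higher in all 3 adult libraries, with the call in ATAH ending under TMM factors at 0.91. IGFALS, which stabilises IGFs with IGFBP3 in blood, lay between 1.05 and 2.87 RPKM and was called higher in ATAS than in ATAH (log2 ratio 1.45). With TMM factors it was also called lower in ATAH than in ATAB.

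**Figure D3:**
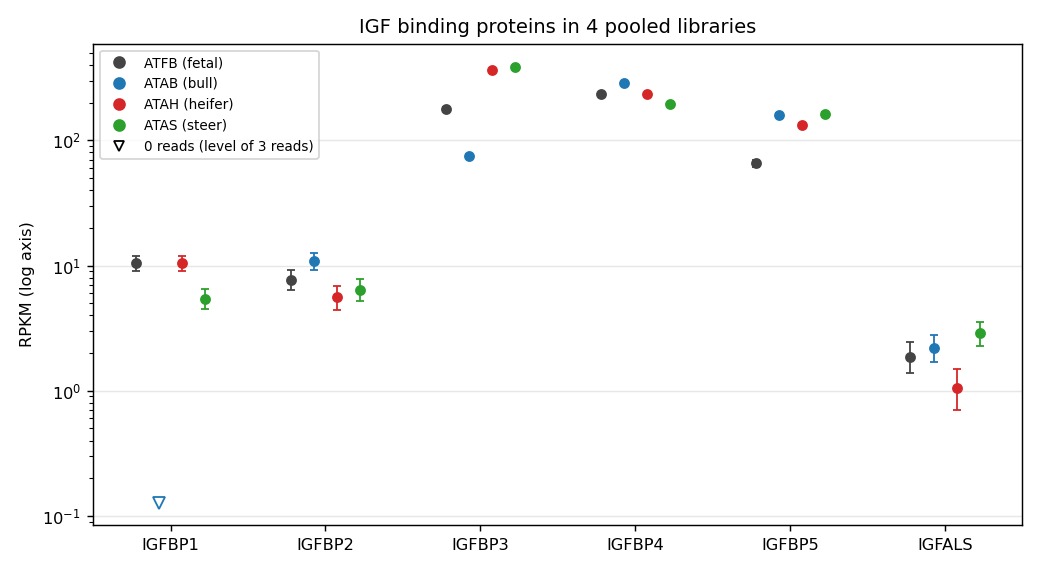
RPKM of the IGF binding proteins and IGFALS (log axis) in the 4 pooled libraries, with 95% counting intervals as bars and an open triangle at the level of 3 reads where no read was counted. IGFBP1 and IGFBP3 were both lowest in ATAB, and IGFBP2 was highest there.

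Proteases and inhibitors of the binding proteins went both ways. HTRA1, a secreted protease that cuts IGFBPs, had 351 RPKM in ATFB and 164, 115 and 150.2 in ATAB, ATAH and ATAS and was called lower in each, though its ratio of -1.10 in ATAB was -0.92 with TMM factors. STC2, a stanniocalcin that inhibits the IGFBP protease PAPPA, had 31 reads in ATFB and 0, 5 and 10 in ATAB, ATAH and ATAS and was called lower in ATAB and ATAH. STC1, its relative, was highest in ATAS at 84.7 RPKM, against 33.8 to 41.9 in the other libraries. ADAM12, a protease of IGFBP3 and IGFBP5, was highest in ATAB at 3.32 RPKM, against 0.236 in ATFB, 0.791 in ATAH and 0.619 in ATAS. PAPPA itself had 0, 1, 2 and 4 reads, and PRSS23 lay between 98.2 and 147 RPKM and was called in no pair.

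**Figure D4:**
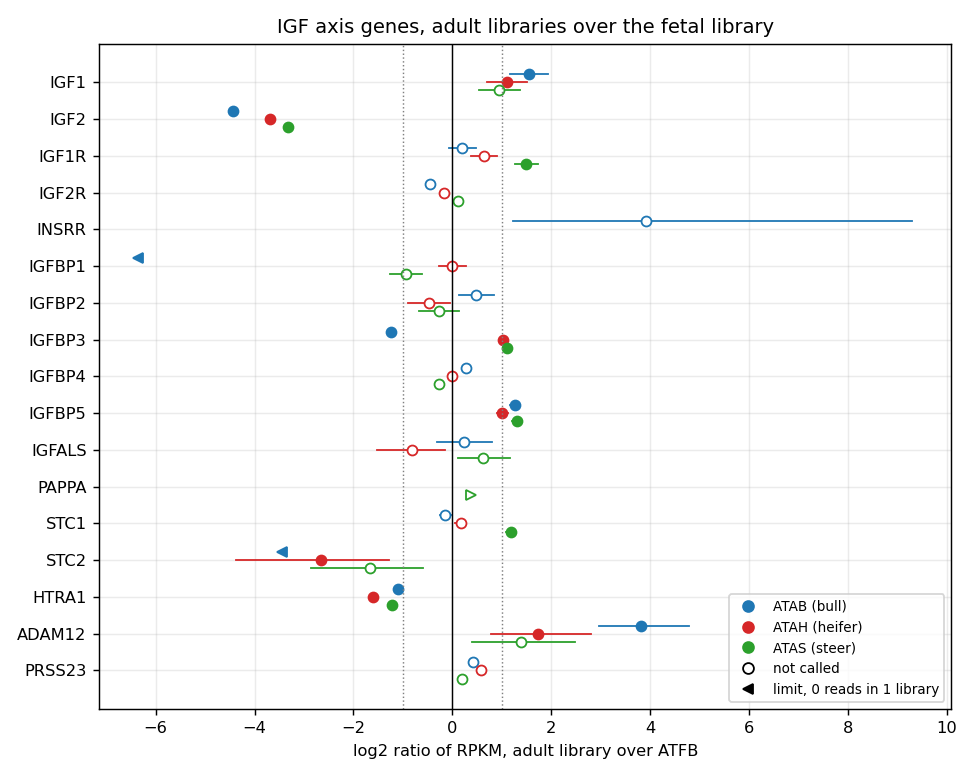
log2 ratio of RPKM of each adult library over ATFB for the 17 IGF axis genes with a named cluster, with 95% counting intervals as lines; filled symbols were called, open ones were not, triangles are limits where 1 library had 0 reads, and dotted lines mark 2-fold. IGF2 and HTRA1 lay below ATFB in all 3 adult libraries and IGFBP5 above, while IGFBP1 and IGFBP3 were called lower in ATAB and in no other adult library at this scaling by library totals.

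IGF2BP3 belongs to a family of 3, and the others were read beside it. IGF2BP2, the member known from adult tissues, had 5.11 RPKM (ATFB), 0.483 (ATAB), 0.438 (ATAH) and 1.003 (ATAS). It was called lower in each adult library, with log2 ratios of -3.40, -3.54 and -2.35, but in none with the assumed coefficient of 0.4. IGF2BP1 had 4, 2, 0 and 0 reads and was called in no pair. IGF2BP3 was close to IGF2BP2 per length in ATFB, with a ratio of 0.907 (0.747 to 1.11), and below it in ATAB at 0.3004 (0.122 to 0.704) and in ATAS at 0.0601 (0.0154 to 0.169). Of 15 exact Fisher comparisons of such gene ratios in an adult library with ATFB, the highest Benjamini-Hochberg adjusted p was 0.0103, for IGF2BP3 over IGF2BP2 in ATAB. The fall of IGF2BP3 from ATFB was the larger in each adult library.

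Genes that act on or with IGF2 mRNA were summarised from a list of 17, of which 14 had a named cluster. Of these, 5 were called lower in every adult library against ATFB, while 0 were called higher in ATAB and 1 each in ATAH and ATAS. Of all clusters 13.1%, 9.83% and 10.5% were called lower and 9.51%, 13.9% and 15.5% higher in ATAB, ATAH and ATAS. The median log2 ratio of the list was -0.98 (ATAB), -0.64 (ATAH) and -0.46 (ATAS), and over all clusters it was -0.18, 0.11 and 0.13. With the assumed coefficient of 0.4, 2 of the 14 were called lower in each and 0 higher. In each adult library 3 of 4 keratinocyte and 3 of 3 red cell markers were also called lower, as were the preadipocyte and fibroblast markers counted above, while 11, 11 and 9 of 11 adipocyte markers were called higher, and their part was not tested. The 5 were IGF2BP2, IGF2BP3, HMGA1, an architectural chromatin protein that raises IGF2BP expression, H19, and CD44, a known target of IGF2BP3. HMGA1 had 33.8 RPKM in ATFB and 9.75 to 12.3 in the adult libraries, and CD44 had 184 and 41.1 to 74.4. MYC, whose mRNA the family also binds, was the gene called higher, at 196 and 222 RPKM in ATAH and ATAS against 88.8 in ATFB, and the call in ATAH ended with ACTB as the scaling gene. The general RNA-binding proteins ELAVL1, YBX1 and PABPC1 were called in no pair, although PABPC1 was called lower in ATAH than in ATFB with TMM factors, at -1.06, and YBX1 with ACTB, at -1.10.

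H19, a noncoding RNA made from the maternal copy of the locus that holds IGF2, had a level near that of IGF2 in ATFB. It had 88920 reads (ATFB), 1685 (ATAB), 2209 (ATAH) and 2206 (ATAS), which are 2814, 50.4, 68.5 and 68.5 RPKM. H19 was called lower in each adult library, with log2 ratios of -5.80, -5.36 and -5.36, and was higher in ATFB by the edgeR quasi-likelihood test (adjusted p = 0.00506). IGF2 over H19 was 1.09 in ATFB (1.08 to 1.10), 2.82 in ATAB (2.67 to 2.97), 3.45 in ATAH (3.299 to 3.61) and 4.47 in ATAS (4.27 to 4.67) as a ratio of RPKM. H19 thus fell further than IGF2 in every adult library, and the order of the adult libraries in that ratio was that of IGF2 itself.

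Other imprinted genes of fetal growth were mostly lower in the adult libraries too. Of 18 listed genes, IGF2 and H19 included, 17 had a named cluster. Of the 17, ATAB had 11 called lower, ATAH 10 (13 with TMM factors) and ATAS 10, and 0 were called higher in any of these libraries, although CDKN1C was called higher in ATAB with TMM factors, at 1.14. The shares of all clusters called lower were 13.1%, 9.83% and 10.5%. The median log2 ratio was -1.43, -1.16 and -1.09 in ATAB, ATAH and ATAS, against -0.18, 0.11 and 0.13 over all clusters. With the assumed coefficient of 0.4, 5, 4 and 4 of the 17 were called lower. The preadipocyte and fibroblast markers given above, of which DLK1 and DCN are also in this list, and the adipocyte markers, 11, 11 and 9 of 11 called higher, moved in the same comparisons, and their part was not tested. DLK1, an inhibitor of fat cell formation, had 566 RPKM in ATFB and 0, 1.91 and 0.911 in ATAB, ATAH and ATAS. MEST, a gene of the alpha/beta hydrolase family, had 90.1 RPKM and 2.50, 1.08 and 1.43, and the noncoding RNA MEG3 had 397 RPKM and 21.8, 11.1 and 17.7. IGF2R, GNAS and NDN were not called against ATFB, although NDN was called lower in ATAH with TMM factors, at -1.03.

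**Figure D5:**
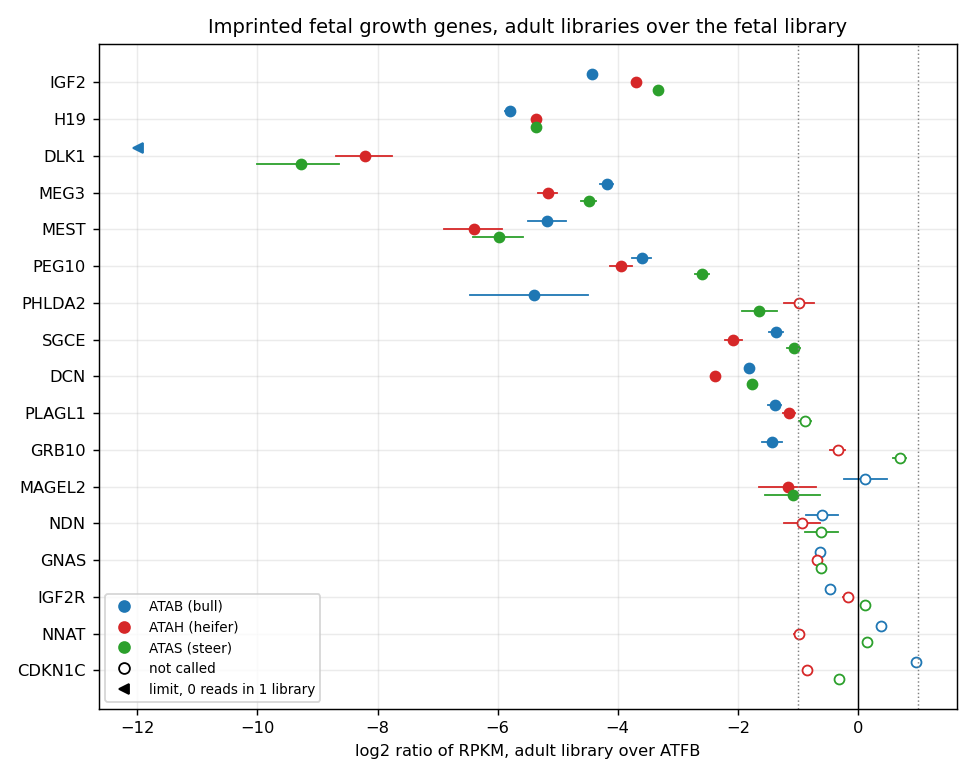
log2 ratio of RPKM of each adult library over ATFB for 17 imprinted fetal growth genes, with 95% counting intervals as lines; filled symbols were called, open ones were not, triangles are limits where 1 library had 0 reads, and dotted lines mark 2-fold. IGF2 was lower in all 3 adult libraries, at -4.43 to -3.32, and PHLDA2 was lowest in ATAB, as IGFBP1 was.

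The imprinted PHLDA2, which restrains placental growth, was also lowest in ATAB. It had 32.1 RPKM (ATFB), 0.764 (ATAB), 16.3 (ATAH) and 10.3 (ATAS). It was called higher in ATAH and in ATAS than in ATAB, at log2 ratios of 4.42 and 3.75, with 10 reads in ATAB, but in neither with the assumed coefficient of 0.4. In these comparisons the median log2 ratio over all clusters was 0.30 and 0.34, and 4.14% and 6.86% of them were called higher.

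Likeness of pattern was also measured over all named clusters with at least 100 reads, as the summed absolute difference between their shares of the RPKM over the 4 libraries, divided by 2. Each profile has 4 points, which share library and depth. The summed RPKM of IGF2 split into 81.7% (ATFB), 3.79% (ATAB), 6.31% (ATAH) and 8.17% (ATAS). The 5 nearest genes to it were AIFM3 at a distance of 0.0262, CDO1 at 0.0387, EFNB3 at 0.0454, MATN4 at 0.0538 and STEAP1 at 0.0563, out of 3703 compared. CDO1, a cysteine dioxygenase, was the most abundant of them with 71.5 RPKM in ATFB and 1.89, 9.14 and 7.33 in ATAB, ATAH and ATAS. H19 stood at place 24 of this order, at a distance of 0.120.

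IGF2BP3, with 95.8% of its summed RPKM in ATFB, was nearest to MEST at 0.0139, followed by IRX6 at 0.0166, POSTN at 0.0249, COL11A1 at 0.0292 and KRT14 at 0.0300. MEST is imprinted like IGF2, and H19 stood at place 7 of this order, at 0.0332. POSTN encodes periostin, COL11A1 a fibrillar collagen chain and KRT14 a keratin of the basal epidermis, and POSTN had 741 RPKM in ATFB and 13.1 to 16.2 in the adult libraries. KRT14 had 147 reads in ATFB and 0 to 2 in the adult libraries, so that a keratinocyte marker moved with IGF2BP3. The summed keratinocyte and red cell levels given above were also highest in ATFB, with 0 of 4 keratinocyte markers at 0 reads there and 2 (ATAB), 1 (ATAH) and 1 (ATAS) in the others. Their part in the result was not tested.

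IGFBP1 had no close match among the named clusters. The nearest, a BOLA class I sequence at a distance of 0.107, had 63.6, 20.1, 73.6 and 30.3 RPKM and belongs to the MHC genes, whose near-identical copies make its counts uncertain. CXorf23 at 0.127, HYAL3 at 0.128, SARDH at 0.132 and FAM229A at 0.136 followed, and all 5 had reads in ATAB. IGFBP3 stood at place 661 and PHLDA2 at place 14 of this order.

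IGFBP1 is known above all as a liver gene, and hepatocyte markers were read beside it. Of 16 markers 9 had a named cluster, and their summed level was 16.2 RPKM (ATFB), 238 (ATAB), 257 (ATAH) and 164 (ATAS). ALB, the defining marker, had 16, 14, 27 and 17 reads. SERPINA1 and AHSG had 27 and 15 reads in ATFB and 0 in each adult library. HP, TF and FGG, plasma proteins made in liver, held nearly all of the adult sums, which thus do not follow ALB, SERPINA1 or AHSG. Which cells their reads came from was not analysed here. HP had 10.4, 137, 70.3 and 38.3 RPKM in ATFB, ATAB, ATAH and ATAS, TF had 2.48, 90.8, 161 and 113, and FGG had 0.448, 9.22, 24.5 and 11.8. Of the 6 markers with reads in either library, 5 had a ratio above 1 in ATAH over ATAB (1 called higher, median log2 ratio 1.02), and 5 of 6 a ratio below 1 in ATAS over ATAH (2 called lower, median -0.77). In ATAS over ATAB 0 markers were called higher and 1 lower (median 0.33). The medians over all clusters were 0.30, 0.04 and 0.34 in these comparisons, where 4.14% of all clusters were called higher in the first, 1.48% lower in the second, and 6.86% higher and 1.87% lower in the third. With TMM factors, ATAH over ATAB had 1 marker called higher and 1 lower, and with the assumed coefficient of 0.4 none was called in the 3 comparisons. The part of hepatocyte RNA in the IGFBP1 level was not tested.

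Genes known to control IGFBP1 or to rise with it were counted from a list of 25, of which 21 had a named cluster. Between adult libraries, 6 of the 21 were called higher in ATAH than in ATAB and 0 lower, and 12 were called higher and 2 lower in ATAS than in ATAB. The median log2 ratio was 0.72 and 1.05, beside 0.30 and 0.34 over all clusters. Of all clusters, 4.14% were called higher in ATAH and 6.86% in ATAS, and 1.23% and 1.87% lower. With TMM factors 2 genes of the list were higher in ATAH and 5 in ATAS, and with the assumed coefficient of 0.4 none was called in either. In ATAS over ATAB, 4 of 7 leukocyte markers were called higher and all 7 had a ratio above 1 (median log2 ratio 1.08), while 1 of 11 adipocyte markers was called higher and 4 lower (median -0.78). Their part in the counts was not tested. ATF3, a stress-induced transcription factor, had 11.7 RPKM (ATFB), 15.1 (ATAB), 43.9 (ATAH) and 61.0 (ATAS). TRIB3, a stress-induced inhibitor of AKT, had 1.48, 0.841, 3.36 and 2.72 RPKM, lowest in ATAB as IGFBP1 was. VEGFA, a target of the low-oxygen pathway, rose to 257 RPKM in ATAS from 40.4 in ATAB and 93.5 in ATAH, while IGFBP1 was higher in ATAH than in ATAS.

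Against ATFB, 7 of these 21 genes were called higher and 2 lower in ATAB, 13 higher and 1 lower in ATAH, and 13 higher and 0 lower in ATAS. The shares of all clusters were 9.51%, 13.9% and 15.5% higher and 13.1%, 9.83% and 10.5% lower, and with the assumed coefficient of 0.4 the list had 1 gene called higher in each library and 0 lower. Adipocyte markers, 11 (ATAB), 11 (ATAH) and 9 (ATAS) of 11, and leukocyte markers, 5, 4 and 5 of 7, were called higher against ATFB too, and their part in these counts was not tested. The fetal library, with as many IGFBP1 reads per length as ATAH, had lower levels of some of them, FOXO3 and PDK4 included. The other way, 6, 2 and 3 of the 21 had a ratio below 1 in ATAB, ATAH and ATAS over ATFB. FOXO3, a transcription factor that insulin holds out of the nucleus, had 0.863 RPKM (ATFB), 5.93 (ATAB), 8.14 (ATAH) and 12.2 (ATAS). PDK4, a FOXO target that spares glucose in fasting, had 46.2, 238, 477 and 765 RPKM. FOXO3 and PDK4 were lowest in ATFB, and IGFBP1 was lowest in ATAB. Whether these genes act on IGFBP1 here was not tested.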

How the data were processed

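The authors removed adaptor, redundant and low-quality reads, aligned the rest with SOAPaligner, allowing under 3 mismatches in the final pass, and deposited for each UniGene cluster the count of uniquely matching reads, the RPKM and the percent of the sequence covered. The count columns were not normalized by the authors, and RPKM divides them by length and by the library total (15274529 in ATFB, 16148487 in ATAB, 15590706 in ATAH, 15557063 in ATAS). The submitters' processing notes name CASAVA; a strand setting is not given in the sources used here, so reads of a gene and of an overlapping antisense transcript cannot be told apart. Symbols came from the descriptions and accessions of the deposited sequences and were found for 4939 clusters. Pairs of libraries were compared on the counts with exact binomial tests (SciPy 1.17.1), with Clopper-Pearson 95% intervals and 3 reads in place of a count of 0. ATFB was compared with the adult libraries with edgeR 4.0.16 (quasi-likelihood test, TMM, filterByExpr), where sex and castration count as spread and the lone ATFB library is assumed to vary as the adult ones do. Alternatives used TMM, ACTB, DESeq2 1.42.0, an assumed biological coefficient of variation of 0.4, a minimum of 10 reads and leaving out each adult library. Matching sequences were found with BLAST 2.17.0. Tests were run on simulated data before use, with 200 clusters changed 4-fold. The pair test called 94.5% of these where reads were sampled only. The quasi-likelihood test called 46.5% at a simulated coefficient of variation of 0.3, so it can miss such a change. Named were the 3 genes, IGF axis genes, up to 4 called genes with the largest ratio per other list and comparison, and the 5 genes most alike to each; NDN, GNAS, ELAVL1, YBX1, PABPC1, PHLDA2, MYC, CD44, HP, TF and FGG were added to show a count or a contrast after their values were seen. The genes and lists were chosen with earlier results of these data known. DDX3Y, XIST and markers of other cells were read as checks.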

Additional observations from a re-analysis of the deposited data

How the results depend on the processing

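No paired analysis was possible because each group has 1 library and the labels carry no replicate numbers. IGFBP1 in ATAH over ATFB, at a log2 ratio of 0.00, turned to -0.10 with TMM factors, -0.27 with ACTB and -0.14 with DESeq2 size factors, called in none. IGFBP1 in ATAS over ATFB was called with those scalings, at -1.06, -1.19 and -1.09. IGF2 in ATAS over ATAB was not called with TMM (0.81), DESeq2 size factors (0.81) or the assumed coefficient of 0.4 (1.11, unchanged in size), which also ended the calls of IGF2 in ATAH (-3.70) and ATAS (-3.32) over ATFB. IGF2BP3 in ATFB against the adult libraries was not called by the DESeq2 Wald test (6.03). The counts of IGF axis genes called higher in ATAB, ATAH and ATAS over ATFB fell to 0 each with the assumed coefficient, and those called lower to 2, 0 and 0. With TMM, 1 gene was called higher in ATAH over ATFB, 3 lower in ATAH over ATAB and 1 higher in ATAS over ATAH. With ACTB, 0 were called higher in ATAH, and 2 higher and 4 lower in ATAS over ATFB. Between adult libraries the assumed coefficient left 1 higher and 0 lower in ATAH and in ATAS over ATAB, and 0 in ATAS over ATAH. With each adult library left out, the log2 fold change of ATFB over the adults lay between 3.64 and 4.02 for IGF2, 5.42 and 7.32 for IGF2BP3 and 0.52 and 2.05 for IGFBP1, each on its side of the threshold, with adjusted p for IGF2 highest without ATAH, at 0.0358. The value of IGFBP1, not called in any of these, was 2.05 without ATAH and 0.52 without ATAB. Adding the unnamed clusters that match IGF2, a choice made after seeing the data, changed no call. IGF2BP3 had few reads in the adult libraries, and pooled libraries leave the spread between animals unknown.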

Other observations

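The growth hormone side of the axis was described last. Of 8 genes listed, 7 had a named cluster, of which 3 were called higher and 1 lower in ATAB than in ATFB, 3 higher in ATAH (2 with TMM factors) and 2 higher in ATAS. Of all clusters 9.51%, 13.9% and 15.5% were called higher in these libraries and 13.1% lower in ATAB, and with the assumed coefficient of 0.4 none of the 7 was called. Adipocyte markers were called higher in the same comparisons, 11, 11 and 9 of 11, and their part in these counts was not tested. GHR, the growth hormone receptor, had 12.2 RPKM in ATFB and 127, 152 and 176 in ATAB, ATAH and ATAS, with log2 ratios of 3.37, 3.63 and 3.85. STAT5B, which carries its signal to the IGF1 gene, had 0.731 RPKM in ATFB and 3.58 to 4.72 in the adult libraries. CISH, a feedback inhibitor of that signal, had 10.5, 4.35, 9.53 and 19.3 RPKM, lowest in ATAB. The log2 ratios of IGF1 in the same libraries were 1.54, 1.10 and 0.95. GHR was lowest in ATFB, where IGF2 was highest, but among adult libraries both were lowest in ATAB and highest in ATAS, and GHR was called in no adult pair, with a log2 ratio of 0.26 for ATAH over ATAB that was -0.02 with TMM factors.

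Downstream of the receptors, 22 of 32 genes of insulin and IGF signalling had a named cluster. Of these 7 were called higher in ATAB than in ATFB, 10 in ATAH and 12 in ATAS, and 0 were called lower, while scaling by ACTB gave 2 called lower in ATAB and 1 in ATAH. The shares of all clusters called higher were 9.51%, 13.9% and 15.5%, and with the assumed coefficient of 0.4 none of the 22 was called in any of them. The median log2 ratio was 0.31, 0.60 and 1.14, beside -0.18, 0.11 and 0.13 over all clusters. PIK3R1, the regulatory subunit of PI3-kinase, had 7.28 RPKM in ATFB and 48.3, 69.1 and 84.7 in ATAB, ATAH and ATAS. AKT2, the AKT form of insulin-responsive tissue, had 22.9 RPKM in ATFB and 82.6 to 87.1 in the adult libraries, and PDPK1, the kinase that activates AKT, had 1.45 and 5.58 to 10.3. The adult libraries, where IGF2 was lower than in ATFB, had the higher levels of these 3 genes. Adipocyte markers moved with them, as given above. Of 7 leukocyte markers 5, 4 and 5 were called higher and 1, 0 and 0 lower in ATAB, ATAH and ATAS. The part of these markers in the result was not tested.

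IGFBP1 was the only 1 of all 36373 clusters with 0 reads in ATAB and at least 100 in each other library, a pattern chosen after its values were seen. The same pattern with another library at 0 reads was met by 4 clusters for ATFB and by 0 for ATAH or ATAS. IGF2BP3 was among 30 clusters with at least 100 reads in ATFB and at most 10 in each adult library, of which 9 carried a symbol, ADAMDEC1, ALAS2, CDH7, CLEC4G, EFNB3, IRX6, KRT13 and KRT14 beside IGF2BP3.

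The IGF2 sequence was covered less completely in the adult libraries than in ATFB. In ATFB 98.2% of it held a read, which leaves 70 bases without one, and in ATAB, ATAH and ATAS 91.0%, 90.3% and 90.4% did, which leaves 344, 372 and 368 bases. Other clusters within 1.5 times of its length and of its reads per base had a median coverage of 98.9% in ATAB (60 clusters), 98.8% in ATAH (36) and 97.2% in ATAS (31), and 4, 2 and 5 of them were covered less than IGF2. The part of the sequence before the start codon measures 279 bases. The files give coverage as a percent without positions, so where the uncovered bases lie was not analysed here.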
